A study of Arabidopsis thaliana with 16 samples.

Results

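The core cell cycle and cytokinesis genes examined here are 53 Arabidopsis thaliana genes, out of 27206 in the expression table. They were taken from a list of identifiers that names the A-, B- and D-type cyclins, the A- and B-type cyclin-dependent kinases (CDKs) with WEE1, the KRP inhibitors, the E2F factors with RBR1, 5 regulators of the anaphase-promoting complex (APC/C), 2 Aurora kinases, and the cytokinesis genes KNOLLE, HINKEL and PLEIADE. No expression value entered the rule. All 53 were in the table. CYCD7;1, a D-type cyclin, was listed at 0 in each library, and the other 52 passed the filter on low values, a mean of at least 0.5 RPKM in at least 1 cross. RPKM scale the reads of a gene to its length and to the mapped reads of the library, so levels of different genes can be compared per length.

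Transcripts were measured by RNA-seq in whole seeds, taken from 20 siliques per library at 6 days after pollination (DAP), with 2 biological replicates per cross. The mother was in each case a male-sterile pi-1 plant of the Ler accession with wild-type copies of the mutated genes, and the pollen donor was of the Col accession. The wt cross had a wild-type pollen donor and gave diploid seeds. The osd1 cross had a pollen donor mutant for OSD1 (allele osd1-3), a gene needed for the second meiotic division. According to the paper, this mutant forms diploid gametes at high frequency, not always. Its seeds are called triploid after the ploidy of the embryo, and have an excess of paternal genomes. The phe1 phe2 osd1 cross had a pollen donor that in addition carried a CRISPR-made premature stop in PHE1 and a T-DNA insertion in PHE2, which encode related type I MADS-box transcription factors, and its seeds were also triploid. The mutations entered through the father only, so the maternal alleles stayed wild type. PHE1 binding was measured separately, by ChIP-seq for a PHE1-GFP fusion in 2 replicates of whole siliques at 2 DAP. These siliques came from Col plants with a PHE1::PHE1-GFP transgene, not from a Ler by Col cross. Stage, tissue and genotype therefore differ between the binding data and the RNA-seq data. With 2 libraries against 2, an exact permutation test of 1 gene cannot go below p = 0.333, so genes were tested with limma on log2(RPKM + 0.5) across the 20051 genes that passed the filter. In what follows "rose" and "fell" mean a Benjamini-Hochberg adjusted p below 0.05 in that test.

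Each library held an estimated 16.25 to 18.2 M reads. Between replicates, the median absolute log2 difference of the 52 tested members was 0.14 (wt), 0.19 (osd1) and 0.19 (phe1 phe2 osd1), against 0.15, 0.26 and 0.22 over all tested genes. KNOLLE was the member that differed most between the osd1 replicates. A list of 11 embryo markers summed to 240 and 231 RPKM in wt, to 63.3 and 125 in osd1, and to 116 and 86.2 in phe1 phe2 osd1, and 9 of the 11 reached 0.5 RPKM in both wt libraries. The sum of 9 endosperm markers was 263 and 273 RPKM in wt, 218 and 153 in osd1, with 173 and 178 in phe1 phe2 osd1, while 7 seed coat markers summed to 1076 and 987, 597 and 926, and 661 and 862. All 3 sums were lower in each triploid library than in either wt library, but they were carried by a few abundant genes, and single markers moved both ways. Of the 9 endosperm markers 4 rose in osd1 (AGL62, FWA, MINI3 and MEA) and 2 fell (ZOU and SUC5), with a median log2 fold change of 1.36. In the seed coat list 5 of 7 rose and none fell, while of the 9 embryo markers tested WOX9 and LEC1 fell and none rose. The part of the tissue make-up in the results below was not tested. Fewer dividing cells and less RNA per dividing cell cannot be told apart in whole seeds.

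Cyclins bind CDKs and set the substrate and timing of kinase activity. D-type cyclins relay growth signals to the retinoblastoma protein RBR1, which holds E2F factors in check until S phase, and A-type cyclins act in S phase and G2. B-type cyclins act at mitotic entry, after which the APC/C, with CDC20 or CCS52 as its activator, marks cyclins for destruction. KRP proteins and the WEE1 kinase restrain CDK activity. In plants the daughter cells are divided by a new wall that grows from the phragmoplast, and in the endosperm nuclei first divide without walls and are walled off later, during cellularization.

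Most of the members that changed in the triploid seeds were lower than in wt. In osd1 against wt, 27 of the 52 tested members fell and 3 rose. Over all 20051 genes, 13.4% were called lower and 12.6% higher. The median log2 fold change of the members was −0.72, against 0.01 over all tested genes. By the rank product, the test named in the methods of the study, with an unadjusted p below 0.05, 20 members were lower and 1 was higher, where 8.63% of all genes were lower and 8.54% higher. In phe1 phe2 osd1 against wt, 26 members fell and 3 rose, with 12.5% and 12.1% of all genes, and their median was −0.67 against 0.01. The rank product called 20 lower and 1 higher in that comparison, with 9.06% and 8.51% of all genes. These 2 comparisons share the wt libraries, so they do not stand for separate evidence. Without wt replicate 1 the calls in osd1 dropped from 30 to 15, and without wt replicate 2 to 19. In phe1 phe2 osd1 they dropped from 29 to 11 and to 13. All 30 and all 29 kept their sign under every alternative run.

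**Figure D1:**
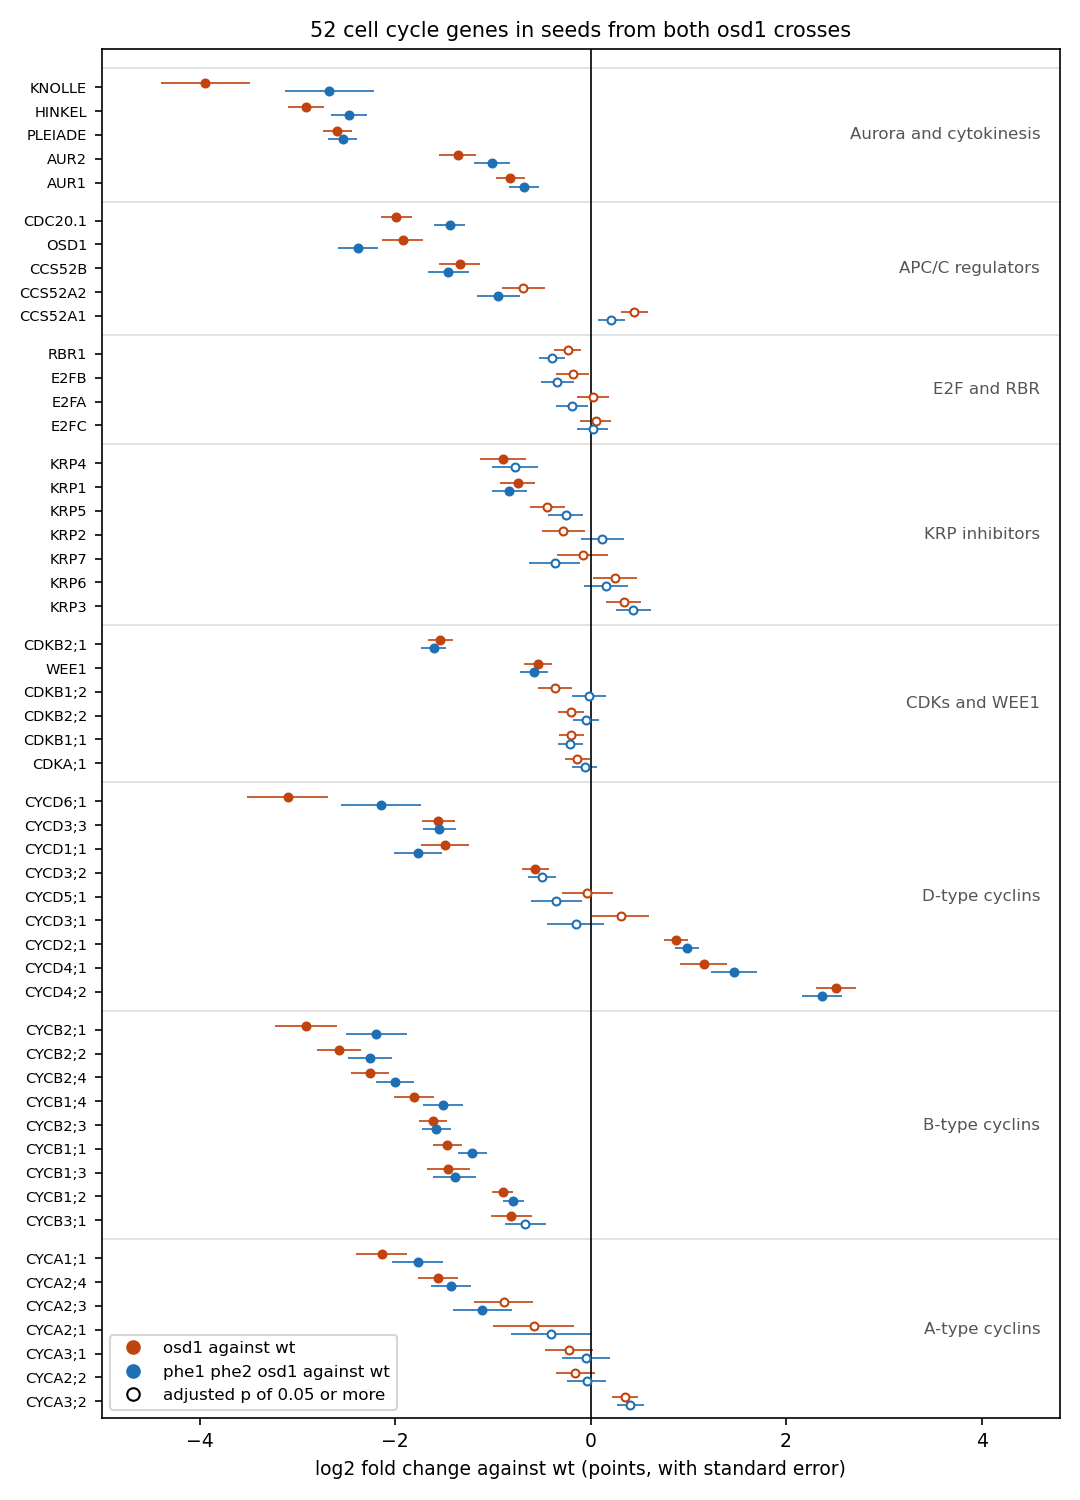
Log2 fold change on the log2(RPKM + 0.5) scale against wt for the 52 tested members (vertical axis, grouped by class) in osd1 (orange) and phe1 phe2 osd1 (blue), with bars of 1 standard error and filled symbols where the adjusted p was below 0.05. All 9 B-type cyclins and all 5 Aurora and cytokinesis genes lie left of 0, while the D-type cyclins run from −3.10 to 2.51 in osd1.

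All 3 cytokinesis genes fell in both triploid crosses. KNOLLE (AT1G08560, SYP111, chromosome 1, 2709525 to 2711000, minus strand, TAIR10) encodes the syntaxin that fuses vesicles at the forming cell plate. Its level was 372 and 387 RPKM in wt, 14.0 and 41.8 in osd1, whereas phe1 phe2 osd1 had 56.2 and 62.1, which made it the most abundant member per length in wt. The groups did not overlap, the osd1 libraries were the lowest, and osd1 replicate 1 stood below osd1 replicate 2. The log2 fold change was −3.94 ± 0.45 (SE, adjusted p = 0.00218) in osd1 and −2.67 ± 0.45 (adjusted p = 0.00938) in phe1 phe2 osd1, or 13.6-fold and 6.41-fold lower mean RPKM. Without osd1 replicate 1 the value in osd1 was −3.17 (adjusted p = 0.000308), and without osd1 replicate 2 it was −4.71 (adjusted p = 8.12e-05). In phe1 phe2 osd1 the call was lost without wt replicate 1 (adjusted p = 0.1), without wt replicate 2 (adjusted p = 0.0904), without phe1 phe2 osd1 replicate 1 (adjusted p = 0.0558) or 2 (adjusted p = 0.052), and without the filter on low values (adjusted p = 0.0691).

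HINKEL (AT1G18370, chromosome 1, 6319450 to 6324378, minus strand) encodes the kinesin that drives the outward growth of the phragmoplast. Its level was 35.8 and 37.1 RPKM in wt, 3.76 and 5.21 in osd1, and phe1 phe2 osd1 gave 6.47 and 5.88. Both triploid crosses were far below wt, with no overlap, and the fall was 8.14-fold in osd1 (log2 −2.91 ± 0.18, adjusted p = 0.000402) and 5.91-fold in phe1 phe2 osd1 (−2.47 ± 0.18, adjusted p = 0.000692). PLEIADE (AT5G51600, chromosome 5, 20960779 to 20964537, minus strand) encodes a microtubule-bundling MAP65 protein of the phragmoplast midzone. It stood at 26.8 and 27.7 RPKM in wt, 4.17 and 4.04 in osd1, with 4.41 and 4.16 in phe1 phe2 osd1. The 4 triploid libraries lay within a narrow band, 6.64-fold (osd1) and 6.36-fold (phe1 phe2 osd1) below wt in their means. PLEIADE had the smallest adjusted p of all members in both comparisons (0.000306 and 0.0004). The calls of HINKEL and PLEIADE held in both comparisons under every alternative run.

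The Aurora kinases, which phosphorylate histones and spindle proteins in mitosis, fell less. AUR1 (AT4G32830) was measured at 34.8 and 31.3 RPKM in wt, 17.7 and 19.2 in osd1, whereas phe1 phe2 osd1 had 22.8 and 18.3. Values of AUR2 (AT2G25880) were 17.5 and 16.1 in wt, 5.80 and 6.68 in osd1, and phe1 phe2 osd1 gave 6.99 and 9.33. Both genes were lower in each triploid library than in each wt library. The log2 fold changes in osd1 were −0.82 ± 0.15 for AUR1 (adjusted p = 0.011) and −1.36 ± 0.19 for AUR2 (adjusted p = 0.00406), and in phe1 phe2 osd1 they were −0.68 ± 0.15 (adjusted p = 0.0221) and −1.01 ± 0.19 (adjusted p = 0.0128). In osd1 both genes lost their calls without wt replicate 1, and AUR1 also without wt replicate 2. In phe1 phe2 osd1 both were lost without either wt library, AUR2 also without replicate 1 of that cross, and AUR1 without replicate 2 of that cross and without the filter on low values. The class as a whole fell in 5 of 5 members in both comparisons, and the rank product called 4 and 3 of them.

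**Figure D2:**
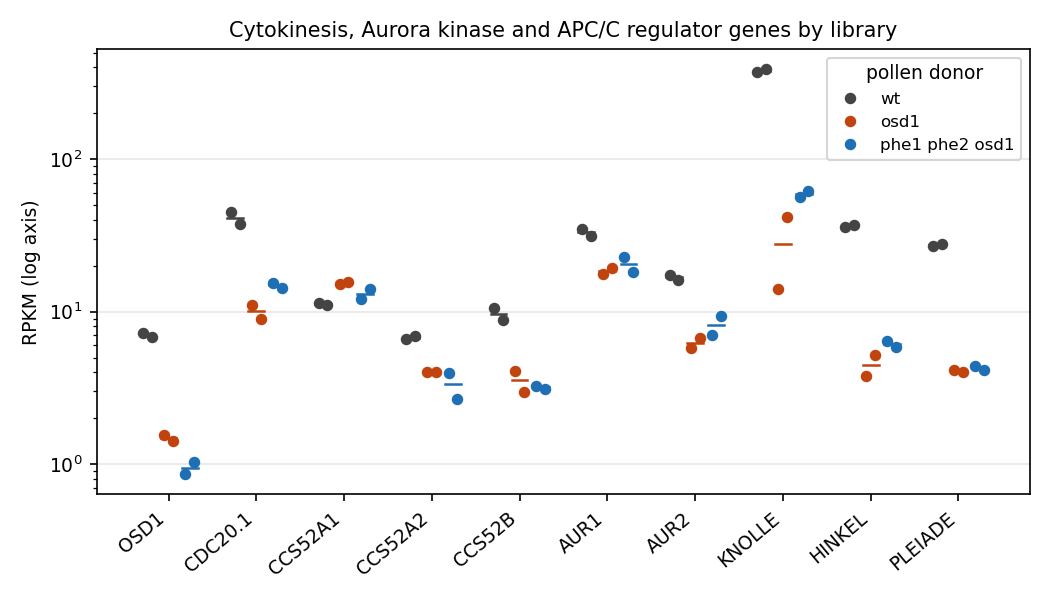
RPKM (log axis) of the 5 APC/C regulators and the 5 Aurora and cytokinesis genes in each of the 6 seed libraries; points are libraries, horizontal bars are means of 2, with wt in grey, osd1 in orange and phe1 phe2 osd1 in blue. KNOLLE runs from 372 and 387 RPKM in wt down to 14.0 in osd1 replicate 1, and CCS52A1 is the one gene of the 10 with a higher mean in both triploid crosses than in wt.

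All 9 B-type cyclins fell in osd1, and 8 of the 9 fell in phe1 phe2 osd1. The rank product called 7 in each comparison, and the class medians of the log2 fold change were −1.61 and −1.51. In both comparisons each of the 9 had its 2 triploid libraries below both wt libraries. The same separation was seen in 6715 (osd1) and 6920 (phe1 phe2 osd1) of the 20051 genes tested. The promoters of several of these genes and of the cytokinesis genes hold the core of the mitosis-specific activator (MSA) element, AACGG on one strand and CCGTT on the other, which MYB3R factors bind. The windows of 30 bases below show this core in capitals and are shown for B-type cyclins that share bases around it and for the 3 cytokinesis genes. They were read from the RefSeq TAIR10.1 assembly, 5′ to 3′ on the strand of the gene, at chr2:7663958-7663987, chr4:16901460-16901489, chr1:7137877-7137906, chr5:1861755-1861784, chr3:3627320-3627349, chr1:2710995-2711024, chr1:6324372-6324401 and chr5:20964619-20964648, in that order.
CYCB2;1: ccctcatgatccAACGGttatattctaaat
CYCB2;2: ccttcatgatccAACGGtcatcttaatcac
CYCB2;3: tggcgttgatccAACGGctgagatgaacta
CYCB1;2: ctaacctatccaCCGTTagatctaaaattt
CYCB1;3: cctccttatccaCCGTTagatttaaagttc
KNOLLE: caaatggacgacAACGGatacatcgccaaa
HINKEL: ggaaagaactagCCGTTagaggttcgtcag
PLEIADE: taagaatatctcAACGGtagggatctattc

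The cores shown lay 85, 124 and 66 bases upstream of the annotated start in CYCB2;1, CYCB2;2 and CYCB2;3, and these 3 genes shared the 11 bases tgatccAACGG around it. CYCB1;2 and CYCB1;3 shared the 15 bases tatccaCCGTTagat, with the core 69 and 64 bases upstream. Cores on either strand were counted in the 300 bases from 250 upstream to 50 downstream of the start. At least 1 was present in 27 of the 53 members (50.9%), against 24.7% of 27444 protein-coding promoters and 26.2% for tested genes. Over the 3 marker lists and the 6 further lists described below, this share ran from 18.2% (embryo markers) to 55.6% (endosperm markers). It was 50% for the spindle, phragmoplast and cytokinesis list. Of the 14 B-type cyclins, Aurora and cytokinesis genes 13 held a core (92.9%), the exception being CYCB2;4. At least 3 cores were present in 8 of these 14, in 12 of all 53 members and in 1.06% of all promoters. KRP1 held the most, 7, and KRP2 and KRP7, called in neither comparison with wt, also held at least 3. CDKB2;1 and CDC20.1, which fell in both, held none. Of the members that fell in osd1, 17 of 27 held a core (63.0%), of those not called 10 of 22 (45.5%), and of the 3 that rose none. A match of these 5 letters is a description of the sequence, and no binding of a MYB3R factor was measured.

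Among the B1 cyclins, CYCB1;1 (AT4G37490), which marks cells from G2 to mitosis, was at 15.1 and 14.5 RPKM in wt, 4.81 and 5.28 in osd1, with 5.99 and 6.23 in phe1 phe2 osd1. CYCB1;4 (AT2G26760) was at 27.2 and 26.9 RPKM in wt, 6.72 and 8.07 in osd1, whereas phe1 phe2 osd1 had 10.95 and 7.66. For both cyclins the wt libraries were close together and well above the other 4. The log2 fold changes of CYCB1;1 were −1.46 ± 0.15 (adjusted p = 0.00149) in osd1 and −1.21 ± 0.15 (adjusted p = 0.00325) in phe1 phe2 osd1, and those of CYCB1;4 were −1.81 ± 0.20 (adjusted p = 0.00195) and −1.51 ± 0.20 (adjusted p = 0.00406). CYCB1;2 and CYCB1;3 are close paralogs, and reads from one could have been placed on the other. CYCB1;2 (AT5G06150) had 46.5 and 44.8 RPKM in wt, 25.2 and 23.3 in osd1, and phe1 phe2 osd1 gave 25.7 and 26.8, the smallest fall of the B1 cyclins (−0.90 ± 0.11, adjusted p = 0.00269, and −0.79 ± 0.11, adjusted p = 0.00472). CYCB1;3 (AT3G11520) had 30.5 and 26.6 RPKM in wt, 8.66 and 11.7 in osd1, with 12.5 and 8.94 in phe1 phe2 osd1. Its wt libraries were again above the other 4, with log2 fold changes of −1.46 ± 0.22 (adjusted p = 0.00571) and −1.39 ± 0.22 (adjusted p = 0.00746). In osd1 the call of CYCB1;3 was lost without either wt library, and in phe1 phe2 osd1 the calls of all 4 B1 cyclins were lost without wt replicate 1, those of CYCB1;2, CYCB1;3 and CYCB1;4 also without wt replicate 2.

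The B2 cyclins, which act at the entry into and passage through mitosis, all fell in both triploid crosses. CYCB2;1 (AT2G17620, chromosome 2, 7664055 to 7666522) was at 5.82 and 4.35 RPKM in wt, 0.106 and 0.397 in osd1, whereas phe1 phe2 osd1 had 0.863 and 0.577. It was close to absent in osd1 replicate 1, where the level corresponds to about 3.07 reads, and the 3 crosses did not overlap. Its log2 fold changes, −2.91 ± 0.31 (adjusted p = 0.00173) in osd1 and −2.19 ± 0.31 (adjusted p = 0.00512) in phe1 phe2 osd1, understate the change because 0.5 was added to each value. CYCB2;2 (AT4G35620, chromosome 4, 16901596 to 16904001) was at 9.78 and 10.9 RPKM in wt, 1.38 and 1.26 in osd1, and phe1 phe2 osd1 gave 1.48 and 2.096. Its mean was 7.84-fold lower in osd1 (adjusted p = 0.000844) and 5.79-fold lower in phe1 phe2 osd1 (adjusted p = 0.00156), with no overlap with wt.

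CYCB2;3 (AT1G20610, chromosome 1, 7134659 to 7137828) was at 22.8 and 20.07 RPKM in wt and between 6.66 and 6.93 in the 4 triploid libraries. The triploid libraries hardly differed from each other, and the log2 fold changes were −1.61 ± 0.14 (adjusted p = 0.000936) and −1.58 ± 0.14 (adjusted p = 0.00124). CYCB2;4 (AT1G76310) was at 18.2 and 15.4 RPKM in wt, 3.38 and 2.85 in osd1, with 3.48 and 4.15 in phe1 phe2 osd1. The values of the triploid crosses were again all below wt, with log2 fold changes of −2.26 ± 0.19 (adjusted p = 0.0008) and −2.001 ± 0.19 (adjusted p = 0.00141). The calls of CYCB2;2, CYCB2;3 and CYCB2;4 held in both comparisons under every alternative run, and that of CYCB2;1 did so in osd1 but was lost in phe1 phe2 osd1 without wt replicate 1. CYCB3;1 (AT1G16330), the only B3 cyclin, fell in osd1 (log2 −0.81 ± 0.21, adjusted p = 0.035) and was at −0.67 ± 0.21 (adjusted p = 0.0655) in phe1 phe2 osd1.

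**Figure D3:**
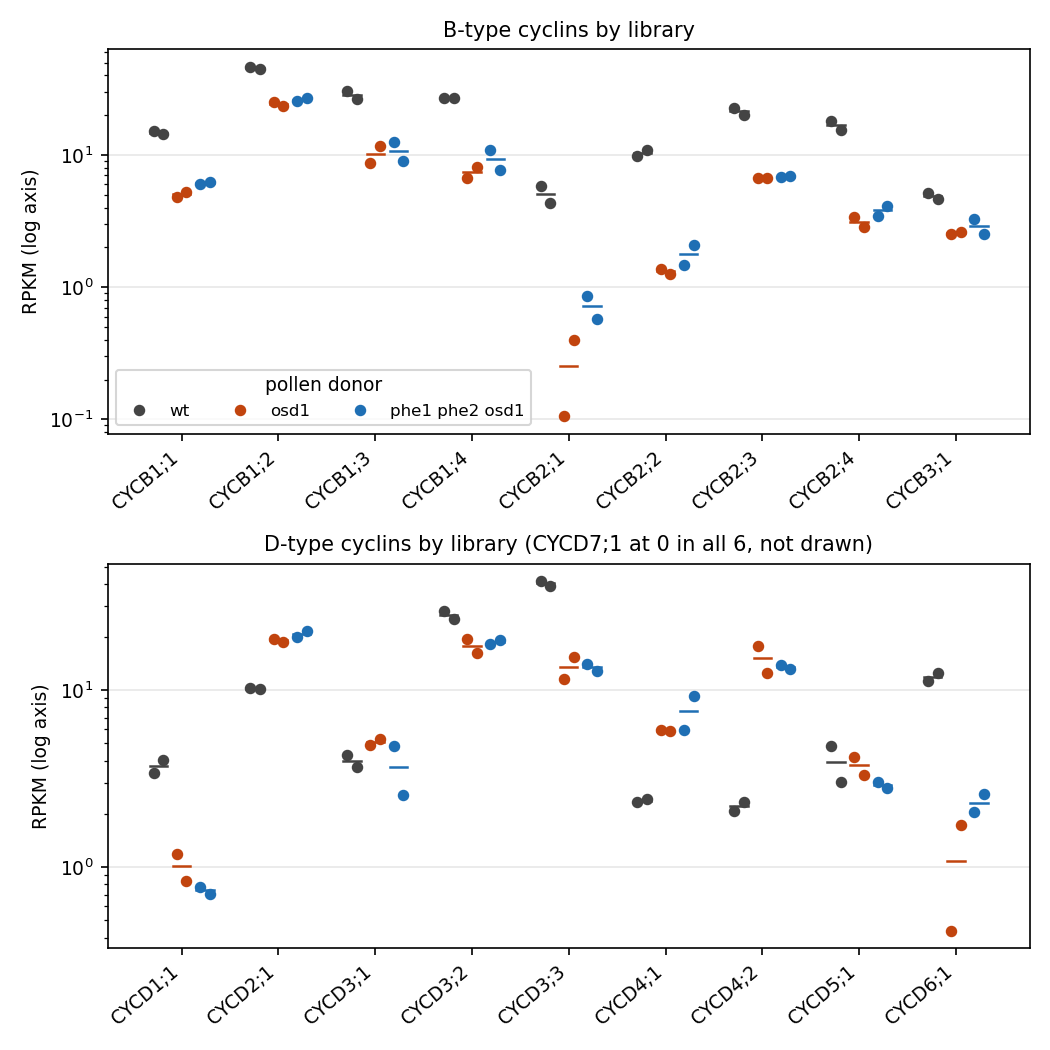
RPKM (log axis) of the 9 B-type cyclins and of the 9 D-type cyclins with a level above 0, in each of the 6 seed libraries; points are libraries and horizontal bars means of 2, with wt in grey, osd1 in orange and phe1 phe2 osd1 in blue. Each B-type cyclin is lower in all 4 triploid libraries than in wt, whereas among the D-type cyclins CYCD4;2 is higher (2.08 and 2.35 RPKM in wt, 12.6 to 17.8 in the triploid libraries) and CYCD6;1 lower.

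Of the 7 A-type cyclins, 2 fell in osd1 and 3 in phe1 phe2 osd1. CYCA1;1 (AT1G44110), the A-type cyclin with the most mitotic expression, was at 19.2 and 17.8 RPKM in wt, 4.43 and 3.27 in osd1, whereas phe1 phe2 osd1 had 3.97 and 6.43. CYCA2;4 (AT1G80370), of the A2 subgroup that acts with B-type CDKs, was at 7.68 and 7.95 RPKM in wt, 2.22 and 2.42 in osd1, and phe1 phe2 osd1 gave 2.99 and 2.24. In both, wt was the highest and the triploid crosses overlapped each other. The log2 fold changes were −2.14 ± 0.26 (adjusted p = 0.00262) and −1.77 ± 0.26 (adjusted p = 0.00564) for CYCA1;1, and −1.56 ± 0.21 (adjusted p = 0.00346) and −1.43 ± 0.21 (adjusted p = 0.00532) for CYCA2;4. CYCA2;3 (AT1G15570), which restrains endoreduplication, fell in phe1 phe2 osd1 (−1.11 ± 0.30, adjusted p = 0.0432) and was at −0.89 ± 0.30 (adjusted p = 0.079) in osd1. The S-phase cyclin CYCA3;2 (AT1G47210) was at 20.3 and 23.7 RPKM in wt, 29.5 and 26.9 in osd1, with 31.0 and 27.7 in phe1 phe2 osd1. Its 4 triploid libraries were above both wt libraries, but neither comparison passed the test (0.35 ± 0.14, adjusted p = 0.112, and 0.41 ± 0.14, adjusted p = 0.079). CYCA2;2 overlapped between the crosses, at 3.83 and 4.55 RPKM in wt, 4.01 and 3.40 in osd1, whereas phe1 phe2 osd1 had 3.79 and 4.33. CYCA2;1 (AT5G25380), at 0.735 to 2.54 RPKM, and CYCA3;1 (AT5G43080), at 4.14 to 6.10 RPKM over the 6 libraries, were also not called. None of the A-type calls held without wt replicate 1, and in phe1 phe2 osd1 none held without wt replicate 2.

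The D-type cyclins moved in both directions. In osd1 4 fell, 3 rose and 2 were not called, and in phe1 phe2 osd1 3 of the 9 fell and 3 rose. CYCD4;2 (AT5G10440, chromosome 5, 3280487 to 3282553), which promotes stomatal lineage divisions, was at 2.08 and 2.35 RPKM in wt, 17.8 and 12.6 in osd1, and phe1 phe2 osd1 gave 13.9 and 13.2. All 4 triploid libraries were above wt, by 6.86-fold and 6.10-fold in the means (log2 2.51 ± 0.21, adjusted p = 0.000729, and 2.37 ± 0.21, adjusted p = 0.00106). The CYCD4;2 call held under every alternative run, and it was the one member called higher by the rank product. Its paralog CYCD4;1 (AT5G65420) was at 2.32 and 2.43 RPKM in wt, 5.96 and 5.87 in osd1, with 5.98 and 9.29 in phe1 phe2 osd1. CYCD2;1 (AT2G22490), which responds to sugar supply, had the same 10.2 RPKM in its 2 wt libraries, with 19.4 and 18.8 in osd1, whereas phe1 phe2 osd1 had 19.9 and 21.5. Neither gene overlapped with wt in any triploid library. The log2 rises were 1.16 ± 0.24 (adjusted p = 0.0171) and 1.47 ± 0.24 (adjusted p = 0.00799) for CYCD4;1, and 0.87 ± 0.12 (adjusted p = 0.0043) and 0.99 ± 0.12 (adjusted p = 0.00324) for CYCD2;1, and the calls were lost without wt replicate 1 for both genes and without wt replicate 2 for CYCD4;1, which in osd1 also lost it without the filter on low values.

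CYCD6;1 (AT4G03270, chromosome 4, 1431844 to 1433861), known from the formative divisions of the root ground tissue, showed the largest fall among the D-type cyclins. It was at 11.3 and 12.5 RPKM in wt, 0.438 and 1.73 in osd1, and phe1 phe2 osd1 gave 2.04 and 2.59. The crosses did not overlap, with osd1 replicate 1 the lowest library. The log2 fold change was −3.10 ± 0.41 (adjusted p = 0.00351) in osd1, −2.47 (adjusted p = 0.0022) without osd1 replicate 1 and −3.72 (adjusted p = 0.000533) without osd1 replicate 2, and −2.14 ± 0.41 (adjusted p = 0.014) in phe1 phe2 osd1. The call was lost without either wt library in both comparisons, and in phe1 phe2 osd1 also without either library of that cross and without the filter on low values. CYCD3;3 (AT3G50070), one of the D3 cyclins that keep cells in mitotic cycles, was at 41.3 and 39.0 RPKM in wt, 11.5 and 15.5 in osd1, with 14.1 and 12.8 in phe1 phe2 osd1. It was the most abundant D-type cyclin per length in wt. Its fall, −1.56 ± 0.17 (adjusted p = 0.00176) and −1.55 ± 0.17 (adjusted p = 0.00212), held under every alternative run. CYCD1;1 (AT1G70210) was at 3.40 and 4.04 RPKM in wt, 1.18 and 0.835 in osd1, whereas phe1 phe2 osd1 had 0.774 and 0.705. The wt libraries were again the highest, with log2 fold changes of −1.49 ± 0.25 (adjusted p = 0.00784) and −1.76 ± 0.25 (adjusted p = 0.00475), and the CYCD1;1 calls were lost without wt replicate 2, in osd1 also without wt replicate 1. CYCD3;2 (AT5G67260) fell in osd1 (−0.56 ± 0.14, adjusted p = 0.033, lost without either wt library) and was at −0.50 ± 0.14 (adjusted p = 0.0502) in phe1 phe2 osd1, whereas CYCD3;1, at 2.56 to 5.27 RPKM over the 6 libraries, and CYCD5;1, at 2.80 to 4.85 RPKM, were called in neither.

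Among the 5 CDKs, CDKB2;1 alone fell. CDKB2;1 (AT1G76540, chromosome 1, 28720328 to 28722550), a plant-specific kinase of G2 and mitosis, was at 48.2 and 48.4 RPKM in wt, 15.1 and 17.7 in osd1, and phe1 phe2 osd1 gave 16.0 and 15.1. The wt libraries were nearly equal and the mean of osd1 was 2.95-fold lower, with log2 fold changes of −1.54 ± 0.13 (adjusted p = 0.000765) and −1.60 ± 0.13 (adjusted p = 0.00085) that held under every alternative run. Its paralog CDKB2;2 (AT1G20930) ranged from 22.7 to 29.2 RPKM over the 6 libraries and was not called (−0.20, adjusted p = 0.318, and −0.05, adjusted p = 0.828). The difference between the paralogs was not tested. CDKA;1 (AT3G48750), the main CDK through the whole cycle, was at 34.5 and 33.8 RPKM in wt, 29.01 and 33.1 in osd1, with 30.7 and 34.7 in phe1 phe2 osd1, and was not called (−0.14 ± 0.13, adjusted p = 0.469, in osd1). CDKB1;1 (23.5 to 30.1 RPKM over the 6 libraries) and CDKB1;2 (AT2G38620, 5.16 to 7.84 RPKM), which share much of their sequence, were not called either. WEE1 (AT1G02970), the kinase of the replication checkpoint, was at 12.0 and 11.5 RPKM in wt, 7.66 and 8.21 in osd1, whereas phe1 phe2 osd1 had 7.90 and 7.46. It was lower in each triploid library, and fell by 0.53 ± 0.14 (adjusted p = 0.0406) and 0.58 ± 0.14 (adjusted p = 0.0332) on the log2 scale, calls that were lost when any library of the compared crosses was left out. In osd1 the WEE1 call was also lost without either phe1 phe2 osd1 library, with the compared crosses fitted alone (adjusted p = 0.0591) and with a replicate block (adjusted p = 0.0505), and its adjusted p ranged from 0.0298 to 0.218 over the alternatives.

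Few of the inhibitors and none of the E2F and RBR1 genes were called. Of the 7 KRPs, which bind and inhibit CDK complexes, KRP1 (AT2G23430) fell in both comparisons (−0.75 ± 0.18, adjusted p = 0.0291, and −0.83 ± 0.18, adjusted p = 0.0211) and KRP4 in osd1 (−0.90 ± 0.23, adjusted p = 0.0359). The rank product called none of the 7, and the KRP calls were lost without either wt library and without the filter on low values, and 1 of the 2 in osd1 with a replicate block. KRP3 (AT5G48820) was at 6.77 and 7.66 RPKM in wt, 9.87 and 8.65 in osd1, and phe1 phe2 osd1 gave 11.2 and 8.82. KRP6 (AT3G19150) was at 15.3 and 13.3 RPKM in wt, 15.6 and 18.7 in osd1, with 12.9 and 19.7 in phe1 phe2 osd1. KRP7 (AT1G49620) was at 1.40 and 1.65 RPKM in wt, 1.22 and 1.62 in osd1, whereas phe1 phe2 osd1 had 1.25 and 0.902. KRP3 stood above wt in all 4 triploid libraries without passing the test (0.34 ± 0.18, adjusted p = 0.223, and 0.44 ± 0.18, adjusted p = 0.134), and KRP6 and KRP7 were not called in either comparison. KRP2 (10.6 to 17.9 RPKM over the 6 libraries) and KRP5 (5.75 to 8.998 RPKM) were not called either. The activating factor E2FA (8.05 to 10.8 RPKM) and the repressive E2FC (15.5 to 19.4 RPKM) overlapped between wt and the triploid crosses, and the activating factor E2FB (5.18 to 7.46 RPKM) was lower in all 4 triploid libraries than in wt. None of E2FA, E2FB, E2FC and RBR1 was called, and 0 of the 4 were called by the rank product. At an unadjusted p below 0.05, 0 of the 4 passed in osd1 and 1 in phe1 phe2 osd1, where 39.5% and 38.4% of all genes did. RBR1 (AT3G12280) was at 27.4 and 26.7 RPKM in wt, 24.0 and 21.9 in osd1, and phe1 phe2 osd1 gave 22.3 and 18.8. Its triploid libraries were below wt (−0.23 ± 0.13, adjusted p = 0.253, and −0.39 ± 0.13, adjusted p = 0.0851).

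RBR1 and CYCD3;3 were the only 2 members with an E2F site (TTTCCCGC, TTTGGCGC, TTTCGCGC or TTTGCCGC, either strand) in the same 300 bases, 3.77% of the members against 1.76% of all promoters. The windows, at chr3:3919417-3919446 and chr3:18566920-18566949 on the gene's strand with the site in capitals, are shown because D-type cyclins act on RBR1, which in turn binds E2F factors.
RBR1: caaatatgtaaTTTCCCGCgtgacctaaac
CYCD3;3: aattttctcgcGCGCCAAAcatccgaatat

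OSD1 is both a member and the gene mutated in the pollen donors. OSD1 (AT3G57860, chromosome 3, 21426285 to 21428340) encodes an inhibitor of the APC/C, and was at 7.19 and 6.82 RPKM in wt, 1.56 and 1.41 in osd1, with 0.861 and 1.03 in phe1 phe2 osd1. Both crosses with an osd1 pollen donor were below wt in every library, by 4.72-fold (adjusted p = 0.00176) and 7.42-fold (adjusted p = 0.00107). Members that were not mutated fell by as much, among them CYCB2;2 (7.84-fold in osd1), and the maternal alleles were wild type, so the level of OSD1 is no check of the labels. Whether the reads cover the part of the gene that the insertion disrupts was not examined. CDC20.1 (AT4G33270), the mitotic activator of the APC/C, was at 44.9 and 37.7 RPKM in wt, 11.1 and 9.01 in osd1, whereas phe1 phe2 osd1 had 15.3 and 14.4. The 3 crosses were separate, with osd1 the lowest, and the log2 fold changes were −1.99 ± 0.16 (adjusted p = 0.000691) and −1.44 ± 0.16 (adjusted p = 0.00224). The near-identical neighbour CDC20.2 could share its reads. The OSD1 and CDC20.1 calls held under every alternative run.

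The CCS52 genes, which encode the other activators of the APC/C, differed in direction. CCS52B (AT5G13840), expressed around mitosis, was at 10.5 and 8.84 RPKM in wt, 4.10 and 2.99 in osd1, and phe1 phe2 osd1 gave 3.28 and 3.12. CCS52A2 (AT4G11920), which acts in endoreduplication and in the root meristem, was at 6.60 and 6.93 RPKM in wt, 4.02 and 3.99 in osd1, with 3.97 and 2.69 in phe1 phe2 osd1. Both were lower in every triploid library. CCS52B fell in osd1 (−1.34 ± 0.21, adjusted p = 0.00672) and in phe1 phe2 osd1 (−1.45 ± 0.21, adjusted p = 0.00558), and CCS52A2 fell in phe1 phe2 osd1 (−0.94 ± 0.22, adjusted p = 0.0269) and was at −0.69 ± 0.22 (adjusted p = 0.0669) in osd1. CCS52A1 (AT4G22910), which promotes endoreduplication, was at 11.4 and 10.98 RPKM in wt, 15.1 and 15.7 in osd1, whereas phe1 phe2 osd1 had 12.1 and 14.0. All 4 triploid values lay above wt, with log2 fold changes of 0.45 ± 0.14 (adjusted p = 0.0608) and 0.21 ± 0.14 (adjusted p = 0.314) that did not pass the test. The calls of CCS52B and CCS52A2 were lost without either wt library, and that of CCS52A2 also without phe1 phe2 osd1 replicate 2 and without the filter on low values.

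The comparison of phe1 phe2 osd1 with osd1 asks whether loss of paternal PHE1 and PHE2 altered these genes in triploid seeds. By limma 0 members were called, as were 0% of all genes in each direction, and 2 of the 52 members passed an unadjusted p of 0.05, as did 2.76% of all genes. These were KNOLLE (1.27 ± 0.45) and CDC20.1 (0.54 ± 0.16), both higher in phe1 phe2 osd1, and each with an adjusted p of 1. The rank product called CYCB2;1, CYCD6;1 and KNOLLE higher and OSD1 lower, 3 and 1 members, where 4.36% and 4.17% of all genes were called at this unadjusted threshold. In 15 of the 52 members both phe1 phe2 osd1 libraries lay above both osd1 libraries, against 12.6% of all genes, and in 7 they lay below, against 10.1% of all genes. The log2 fold change was positive for all 9 B-type cyclins, from 0.03 to 0.72, and for all 5 Aurora and cytokinesis genes, from 0.06 to 1.27. Over all members it was positive in 33 of 52, with a median of 0.09 against 0.01 over all genes. Of the 20051 genes tested, 10432 had a positive value. The signs of the members all rest on the same libraries, so they do not stand for separate evidence. The size of the KNOLLE difference depended on which osd1 library was kept. Without osd1 replicate 1 it was 0.50 (adjusted p = 1), and without osd1 replicate 2 it was 2.04 (adjusted p = 0.0117), the only call of a member in this comparison under any alternative. For KNOLLE, CYCD6;1 and CYCB2;1, osd1 replicate 1 was the lowest library, and osd1 replicate 2 was also below both phe1 phe2 osd1 libraries. The embryo marker sum was lowest in osd1 replicate 1 as well (63.3 RPKM). The part of that library in the values of CYCD6;1 and CYCB2;1 was not tested.

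A further 94 genes of the division machinery were taken from 6 lists to set the members in their pathways, of which 92 were tested. In osd1 against wt 24 fell (26.1%) and 7 rose (7.61%), with a median log2 fold change of −0.19. Over all genes 13.4% fell and 12.6% rose in that comparison. In phe1 phe2 osd1 23 fell (25%) and 5 rose (5.43%), where 12.5% of all genes fell and 12.1% rose. Of 22 spindle, phragmoplast and cytokinesis genes, 14 fell and none rose in osd1, with a median of −0.90. The 4 with the smallest p were TES (−2.36) and POK2 (−1.98), both kinesins of the phragmoplast or division site, PAKRP1 (−1.56), a kinesin of the phragmoplast midline, and TPX2 (−1.49), a spindle assembly factor. By contrast, of 23 genes of S phase and replication licensing 2 fell (8.70%) and 1 rose (4.35%), with a median of −0.03. Both shares were below those of all genes. CDC6, a licensing factor, rose by 1.02 (adjusted p = 0.0391), and the licensing factor CDT1B and the ribonucleotide reductase gene TSO2 were at −0.83 (adjusted p = 0.0234) and −0.63 (adjusted p = 0.0102). An E2F site was present in 11 of these 23 promoters and in 2 of the 53 members. The difference between the lists was not tested.

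**Figure D4:**
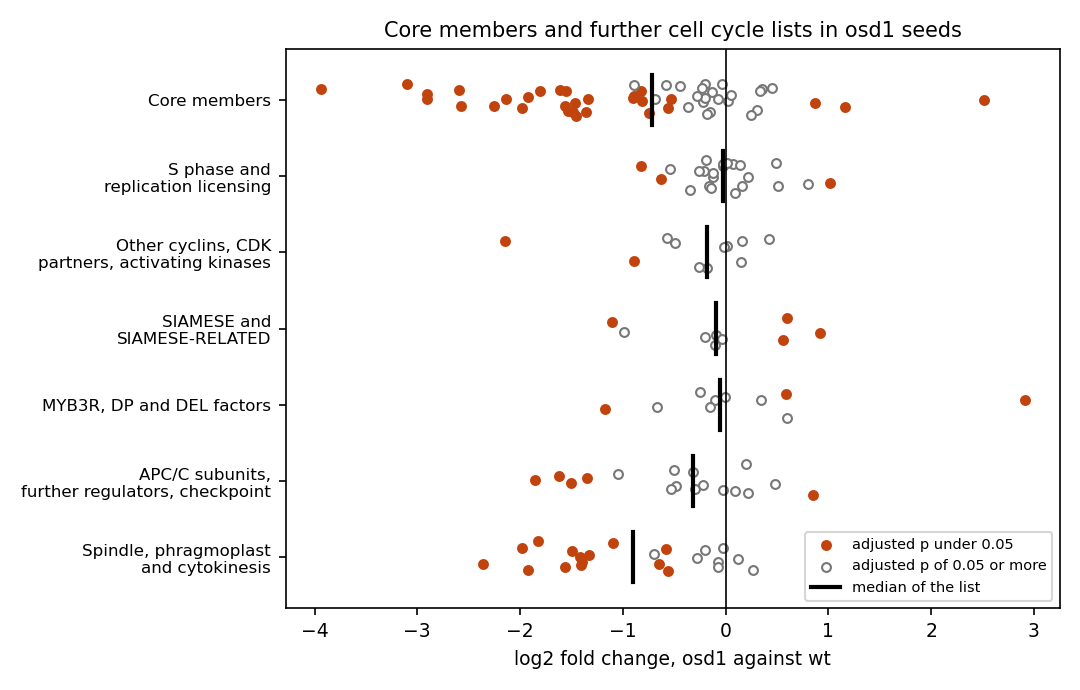
Log2 fold change in osd1 against wt on the log2(RPKM + 0.5) scale for the 52 tested core members and the tested genes of 6 further lists of the division machinery; points are genes and the black bar is the median of each list. The medians run from −0.90 for spindle, phragmoplast and cytokinesis genes to −0.03 for S phase and replication licensing.

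Of 17 further APC/C and checkpoint genes, CDC20.2 (−1.86), MAD2 (−1.62), BUBR1 (−1.50) and BUB3.1 (−1.35) fell in osd1 and APC6 rose (0.85). MAD2, BUBR1 and BUB3.1 encode spindle checkpoint proteins, and APC6 a subunit of the complex. Of 9 tested SIAMESE-type inhibitors, which promote the switch to endoreduplication, SIM (0.60), SMR1 (0.56) and AT1G08180 (0.91) rose in osd1 and SMR4 (−1.11) fell. These were 33.3% and 11.1% of the list, where 12.6% and 13.4% of all genes rose and fell, and the list median was −0.10. In phe1 phe2 osd1 2 of the 9 rose and 0 fell, with a median of −0.42. Among 10 MYB3R, DP and DEL factors, 2 rose and 1 fell in osd1, with a median log2 fold change of −0.06. MYB3R4, an activator of mitotic genes, was the one that fell (−1.17, adjusted p = 0.0117). DEL2, an atypical E2F, rose the most of all 92, from 4.05 and 3.09 RPKM in wt to 27.2 and 32.7 in osd1, with phe1 phe2 osd1 at 31.0 and 35.2 (log2 2.91 ± 0.18, adjusted p = 0.000363, in osd1). Its 4 triploid libraries lay well above wt. Of 11 tested other cyclins and CDK partners, the meiotic cyclin SDS (−2.15, adjusted p = 0.00231) and the CDK subunit CKS2 (−0.89, adjusted p = 0.00808) fell.

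PHE1-GFP regions found in both ChIP replicates lay within 1500 bp upstream to 500 bp downstream of the start of 11 of the 53 members (20.8%), against 7.66% of 26719 genes. In replicate 1 alone the number was 10, against 8.61% of all genes, and in replicate 2 alone 17, against 14.8%. No height was given for the regions, only their bounds. Of those centred upstream of the start, the regions of CCS52A1, CYCB1;3 and CYCA2;2 ran into the gene at one end. Regions centred upstream of the start, with their centres between annotated genes, were found for the B1 cyclins CYCB1;2 (chromosome 5, 1861813 to 1862394, centre 400 bp upstream) and CYCB1;3 (chromosome 3, 3627269 to 3627988, 355 bp), for CYCA2;2 (AT5G11300, chromosome 5, 3605313 to 3606326, 469 bp) and for CYCD6;1 (chromosome 4, 1434889 to 1435526, 1346 bp). The APC/C activators CCS52A1 (chromosome 4, 12011914 to 12012742, 80 bp) and CCS52A2 (chromosome 4, 7163529 to 7164508, 591 bp) and the inhibitors KRP3 (chromosome 5, 19794921 to 19795132, 546 bp) and KRP7 (chromosome 1, 18366898 to 18367340, 375 bp) each had one. For WEE1 (chromosome 1, 672908 to 673116, 294 bp) and KNOLLE (chromosome 1, 2712330 to 2712587, 1458 bp) the nearest annotated start was that of the neighbouring gene, AT1G02965 and AT1G08570. The HINKEL region (chromosome 1, 6323942 to 6324222) was centred in an intron, 296 bp downstream of the start.

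**Figure D5:**
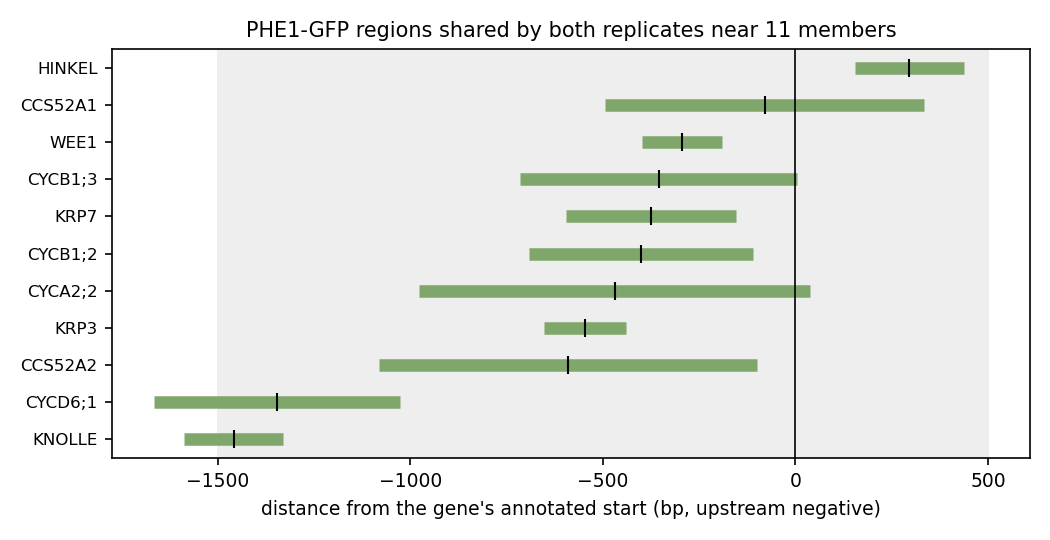
Position of the 11 shared PHE1-GFP regions relative to the annotated start of the member (horizontal axis in bp, upstream to the left, bars drawn to the width of the region); the shaded span is 1500 bp upstream to 500 bp downstream. HINKEL has the only region centred downstream of its start, at 296 bp, and KNOLLE and CYCD6;1 the farthest upstream, at 1458 and 1346 bp.

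No member with a region rose in either triploid cross. In osd1 against wt KNOLLE, HINKEL, CYCB1;2, CYCB1;3, CYCD6;1 and WEE1 fell, and CYCA2;2, KRP3, KRP7, CCS52A1 and CCS52A2 were not called. In phe1 phe2 osd1 the same genes fell, and CCS52A2 did as well. For comparison, 27 of all 52 tested members fell in osd1 and 3 rose, with 13.4% and 12.6% of all genes. In phe1 phe2 osd1 26 fell and 3 rose, with 12.5% and 12.1% of all genes. So few members rose that the lack of a rise among those with a region says little about the regions. The CArG box, a site that MADS-box factors bind, was searched in its exact form only, CCWWWWWWGG with W for A or T. It was present in the regions of KRP7 and CYCD6;1, and in 289 of the 2510 shared regions (11.5%). The paper also describes a partly degenerate CArG-like motif at PHE1 sites, which was not searched here. A region without the exact box may still hold such a motif. No CArG box was found in the 300-base promoter of any member, where 3.05% of all promoters held one. In CYCD6;1 the box was centred 1630 bp upstream of the start, beyond the 1500 bp set for the centres of regions. The boxes, shown because they are the only 2 in these 11 regions, lay at chr1:18367243-18367272 and chr4:1435476-1435505, read here on the strand of the gene.
KRP7: aattcttaacCCATTTTTGGacatgtacag
CYCD6;1: gtttttatttCCAATTTAGGgtatatattt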

How the data were processed

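The authors mapped the seed RNA-seq reads to TAIR10 with TopHat 2.1.0, with 1 placement kept per read, and computed RPKM with GFOLD. The deposited RPKM are scaled by the reads mapped in each library, with no other scaling named. With 1 placement, reads shared by paralogs can fall on either copy. The deposited PHE1-GFP peak lists hold only a start and an end, called by the authors with MACS2 2.1.1 after Bowtie 1.2.2, per replicate against its input. Here peaks were intersected with bedtools 2.31.1 (overlap of at least 1 bp).

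Genes with a mean of at least 0.5 RPKM in at least 1 cross were fitted with limma 3.58.1 in R 4.3.3 (eBayes with a trend, all 6 libraries) on log2(RPKM + 0.5), two-sided, with Benjamini-Hochberg adjustment over 20051 genes. The rank product of the study was recoded over 4 replicate pairs, with zeros set to 0.0001 and 100 permutations. Both were tested on simulated data. Depth was estimated from the spacing of low RPKM values, of which 32.8 to 36.0% lay within 0.05 of a whole read, where chance gives 10%, so reads were not recovered and no count test was run. Numbers of reads are therefore approximate.

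Coordinates, counted from 1, and sequences come from RefSeq (TAIR10.1), which annotated 26719 of the 27206 IDs and all members. Values per library are given for OSD1, KNOLLE, HINKEL and PLEIADE, for up to 25 members with an adjusted p below 0.05 in order of p, for the member with the highest mean RPKM in each class, and for members with a PHE1 region. Of each further list, at most 4 genes with the smallest p are named, apart from the APC/C and checkpoint list, where every gene called in osd1 is named. The members, lists and tests were chosen with earlier results of these data known. Sample columns left unused numbered 0. Alternatives were other pseudocounts (0.1 and 1), filters, scalings, a fit of the compared crosses alone, a replicate block and leaving out each library. The H3K27me3, H3 and input samples were not analysed here.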

Additional observations from a re-analysis of the deposited data

How the results depend on the processing

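Each value was recomputed with another pseudocount, another filter or none, another scaling, limma on the compared crosses alone, a replicate block, and without each library. No direction of a called value turned. The number of members called by limma ranged from 15 to 30 when 1 library was left out in osd1 against wt (30 with all libraries), from 11 to 30 in phe1 phe2 osd1 against wt (29), and from 0 to 1 in phe1 phe2 osd1 against osd1, the 1 being KNOLLE. The fits without a wt library hold that cross to 1 library, assumed to vary like the other crosses. With all libraries kept, the first 2 counts ranged from 25 to 31 and from 23 to 31, lowest without the filter. The rank product with Benjamini-Hochberg adjustment called 0 members in each of the 3 comparisons (21, 21 and 4 unadjusted), and without 1 library its counts were 11 to 16, 12 to 16 and 1 to 5. The members' median ranged from −0.80 to −0.69, from −0.74 to −0.54 and from −0.0101 to 0.0875. Of 30 and 29 calls, 15 and 10 held under every alternative. Members with a PHE1 region numbered 10 to 17 when a single replicate was used. They numbered 8 with an overlap of at least 0.5 of each peak, 8 within 1000 bp upstream to 100 bp downstream, and 9 when the region had to lie nearest to that start. The correlation of replicate differences was −0.004 between wt and osd1 and −0.011 between wt and phe1 phe2 osd1, so replicate numbers did not pair these crosses. Between osd1 and phe1 phe2 osd1 it was 0.174. The fit with a replicate block gave 28, 29 and 0 calls. Over all tested genes the osd1 replicates correlated at 0.961 with each other, and at 0.976 and 0.981 with phe1 phe2 osd1 replicate 1. With 2 libraries per cross, smaller changes, and changes in genes of a few reads such as CYCB2;1, are poorly resolved.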
